A study of Mus musculus with 3 samples.

Results

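The loci of 5 genes that direct or mark the myeloid and erythroid branches of blood formation, Spi1, Cebpa, Csf1r, Gata2 and Tal1, were examined in mouse precursor B-cell leukaemia cells for 2 histone marks of active chromatin. Members were all called peaks of histone H3 acetylated at lysine 27 (H3K27ac) or trimethylated at lysine 4 (H3K4me3) that touched 1 of 5 fixed windows on the mouse build mm9: 70 kb around Spi1 on chromosome 2 (90890000 to 90960000), 90 kb around Cebpa on chromosome 7 (35870000 to 35960000), 70 kb around Csf1r on chromosome 18 (61240000 to 61310000), 60 kb around Gata2 on chromosome 6 (88120000 to 88180000) and 80 kb around Tal1 on chromosome 4 (114700000 to 114780000). There were 15 member peaks among 47610 in all, of which 6 were of 29468 H3K27ac peaks and 9 of 18142 H3K4me3 peaks. The cells were cultured, untreated acute lymphoblastic leukaemia cells of the precursor B stage driven by the Bcr-Abl fusion kinase, the same for both marks. Each mark was measured in 1 chromatin immunoprecipitation library, and another library, made with control IgG, was not analysed here. There is thus no replicate error, and no test between samples was made. Every value below describes these libraries, whose sequencing depth is unknown. The labelled cell type was not checked against marker genes, since gene positions on mm9 were not used here. For the same reason a peak is described by its window and is not assigned to a start site.

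Blood cells choose between lineages through transcription factors that act against or with each other. Spi1 encodes PU.1, an ETS-family factor that myeloid cells need in large amounts and B cells use at a lower level, and its transcription depends on an upstream regulatory element at some distance from the start site. Cebpa encodes C/EBP alpha, the factor that starts granulocyte differentiation and can turn B cells into macrophages when forced on. Csf1r encodes the receptor for macrophage colony-stimulating factor and is a target of PU.1. Gata2 and Tal1 encode a zinc finger factor and a basic helix-loop-helix factor of stem cells, mast cells and the erythroid and megakaryocyte branches, and they often bind DNA in 1 complex. H3K4me3 marks promoters, and H3K27ac marks active promoters and enhancers.

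Promoters of 3 of the 5 genes, Tal1, Gata2 and Cebpa, were matched in the RefSeq promoter table (build GRCm38.p6). No promoter entry was used for Spi1 and Csf1r, although both have a place in the RefSeq order of genes. The promoters of the 3 matched genes are shown because H3K4me3 is usually found where CG dinucleotides are dense. They are given as a description only, with no peak assigned to them. Each line gives the 250 bases before 1 annotated start site, 5′ to 3′, with each CG in capitals. On GRCm38.p6 they lie on the plus strand at chr4:115056176-115056425 and chr4:115057561-115057810 (Tal1), chr6:88193641-88193890 and chr6:88198414-88198663 (Gata2) and chr7:35119043-35119292 (Cebpa). These positions cannot be set beside the mm9 positions of the peaks.
Tal1 start 1: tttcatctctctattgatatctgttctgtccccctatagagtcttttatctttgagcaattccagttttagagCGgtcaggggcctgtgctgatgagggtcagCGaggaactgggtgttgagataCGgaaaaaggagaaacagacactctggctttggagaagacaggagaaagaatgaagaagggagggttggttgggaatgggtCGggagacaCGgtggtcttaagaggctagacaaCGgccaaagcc
Tal1 start 2: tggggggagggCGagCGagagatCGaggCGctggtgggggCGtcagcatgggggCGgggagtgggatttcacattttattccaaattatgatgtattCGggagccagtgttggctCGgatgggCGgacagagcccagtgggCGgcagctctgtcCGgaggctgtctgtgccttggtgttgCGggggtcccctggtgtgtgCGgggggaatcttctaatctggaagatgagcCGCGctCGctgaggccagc
Gata2 start 1: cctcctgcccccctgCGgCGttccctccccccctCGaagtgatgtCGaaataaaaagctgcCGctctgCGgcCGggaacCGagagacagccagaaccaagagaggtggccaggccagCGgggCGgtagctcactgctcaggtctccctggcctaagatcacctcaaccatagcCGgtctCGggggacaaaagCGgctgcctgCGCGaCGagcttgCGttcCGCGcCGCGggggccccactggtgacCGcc
Gata2 start 2: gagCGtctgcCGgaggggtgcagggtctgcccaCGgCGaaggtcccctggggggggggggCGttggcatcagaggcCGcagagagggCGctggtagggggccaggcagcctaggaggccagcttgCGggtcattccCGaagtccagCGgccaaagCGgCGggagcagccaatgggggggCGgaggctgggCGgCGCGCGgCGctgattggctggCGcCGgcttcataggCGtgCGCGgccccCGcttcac
Cebpa: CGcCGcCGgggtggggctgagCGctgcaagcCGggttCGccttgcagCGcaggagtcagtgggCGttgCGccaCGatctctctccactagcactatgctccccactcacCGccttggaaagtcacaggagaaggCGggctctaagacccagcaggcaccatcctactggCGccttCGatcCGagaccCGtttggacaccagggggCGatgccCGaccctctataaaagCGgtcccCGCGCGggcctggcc

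Among these 5 sequences, the Cebpa and Gata2 promoters held more CG dinucleotides than the Tal1 promoters. Cebpa had 22 CG in 250 bases, and 85.2% of the 32841 promoters in the table had fewer. Gata2 had 22 at its first start and 24 at its second, and 88.0% of promoters had fewer than 24. Tal1 had 6 at its first start and 16 at its second, where 49.6% and 74.6% of promoters had fewer. The ratio of observed to expected CG was 0.80 for Cebpa, 0.78 and 0.74 for Gata2 and 0.45 and 0.74 for Tal1, against a median of 0.37 over the table. A search of both strands for AGATAA, a form of the site that GATA factors bind, found 1 match, at the first Tal1 start, and such a match is present in 9.99% of all promoters of this length. The E-box letters CANNTG, which read the same on both strands and which basic helix-loop-helix factors bind, were in none of the 5 sequences and in 66.2% of all promoters.

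**Figure D1:**
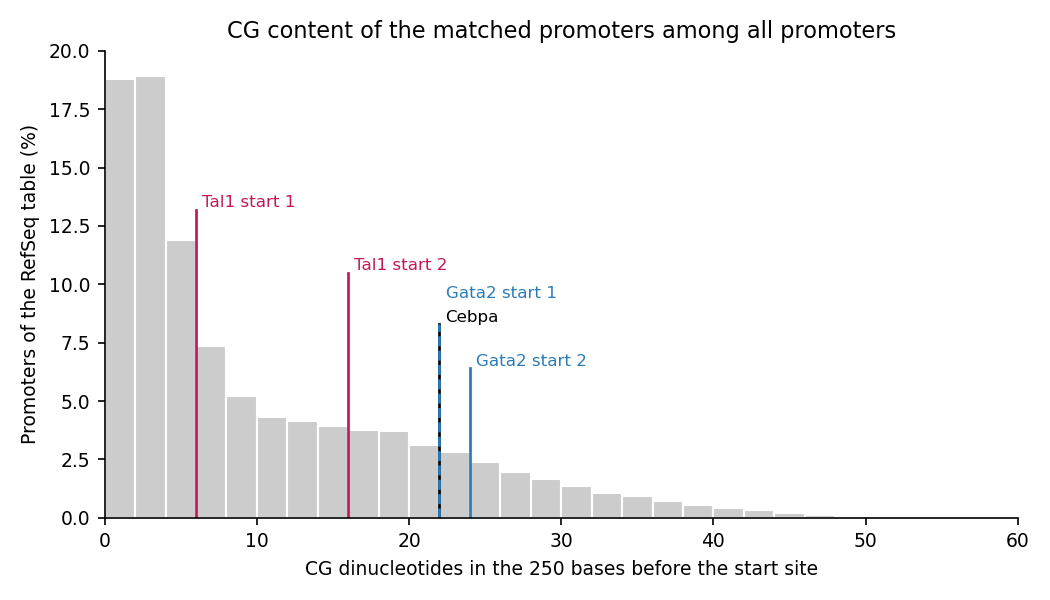
Number of CG dinucleotides in the 250 bases before the start site (x axis) against the percentage of the 32841 RefSeq promoters in each bin of 2 (y axis, grey bars). Vertical lines mark the matched promoters, whose height has no meaning; Cebpa and the first Gata2 start lie together at 22, to the right of both Tal1 starts at 6 and 16.

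The 5 loci fell into 3 states. The Spi1 window was densely marked by H3K27ac and H3K4me3, though its peaks were not assigned to Spi1 itself. The Tal1 window carried both marks in short and mostly separate peaks. The windows of Gata2, Cebpa and Csf1r had no H3K27ac peak. H3K27ac was present in 2 of the 5 windows and H3K4me3 in 3. When the chromosomes were divided into consecutive windows of the same lengths, 63.3 (90 kb) to 69.7% (60 kb) had no H3K27ac peak. For H3K4me3, 67.6 (90 kb) to 74.2% (60 kb) had none. Whether the 5 loci differ from these shares was not tested. In the Spi1 window 20.8% of the bases lay under H3K27ac and 14.3% under H3K4me3. The values were 3.15 and 5.0% in the Tal1 window and 0 and 1.02% in the Gata2 window, and both were 0 in the Cebpa and Csf1r windows. Of the 17067 bp under H3K27ac at these loci, 14547 bp lay at Spi1 and 2520 bp at Tal1.

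**Figure D2:**
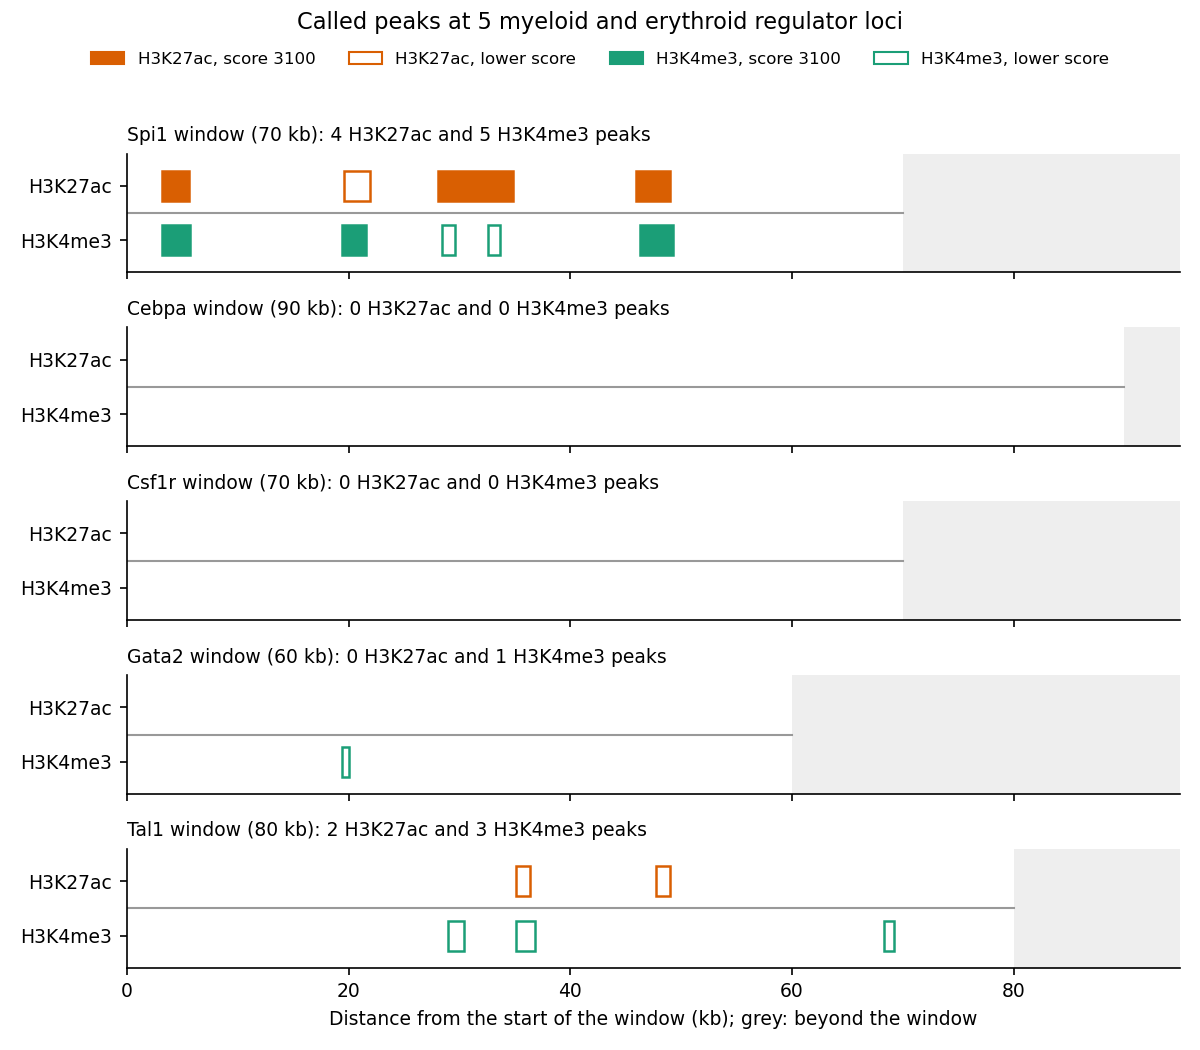
Called peaks in the 5 windows (x axis, kb from the start of each window), with H3K27ac above and H3K4me3 below the line. Filled boxes have a score of 3100 and open boxes a lower one; all filled boxes lie in the Spi1 window, and the Cebpa and Csf1r windows are empty.

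Spi1 was the only one of the 5 loci at which each peak of 1 mark met a peak of the other. Its window held 4 H3K27ac and 5 H3K4me3 peaks. When chromosomes 1 to 19 and X were divided into consecutive windows of 70 kb, 7.06% had at least 4 H3K27ac peaks and 0.9% had at least 5 H3K4me3 peaks. Most such windows are empty, so the Spi1 window was also set beside the 13421 windows with any peak: 6.27% of these had as much H3K27ac length and 2.36% as much H3K4me3 length. In the order of genes in the RefSeq table, Psmc3 and Slc39a13 come before Spi1, and Mybpc3 and Madd come after it. Some of these peaks may therefore belong to start sites of other genes, and which peaks belong to Spi1 was not determined.

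Read from left to right, the first pair in the Spi1 window was an H3K27ac peak of 2434 bp (90893199 to 90895632) inside an H3K4me3 peak of 2584 bp (90893133 to 90895716), both with a score of 3100. The second pair was an H3K27ac peak of 2323 bp (90909568 to 90911890, score 1991.77) that shared 1992 bp with an H3K4me3 peak of 2129 bp (90909431 to 90911559, score 3100). The last pair was an H3K27ac peak of 3092 bp (90935942 to 90939033) that shared 2753 bp with an H3K4me3 peak of 3021 bp (90936281 to 90939301), both scoring 3100. In these 3 pairs the marks covered nearly the same bases, since at least 85.8% of each H3K27ac peak and 91.1 to 94.2% of each H3K4me3 peak were shared.

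The third H3K27ac peak of the Spi1 window had another shape. It was 6698 bp wide (90918131 to 90924828), scored 3100 and was wider than 97.1% of the H3K27ac list. It enclosed 2 narrow H3K4me3 peaks, of 1206 bp (90918422 to 90919627, score 753.88) and 1089 bp (90922594 to 90923682, score 166.66), which lay 2966 bp apart. These covered 34.3% of the acetylated stretch and left 4403 bp with H3K27ac alone. Their scores were low for their list: 37.3 and 19.6% of H3K4me3 peaks scored lower, while 75.9% of H3K27ac peaks scored lower than the peak around them. Of all H3K27ac peaks, 589 (2.0%) met 2 or more H3K4me3 peaks in this way. A score of 3100 for H3K27ac over H3K4me3 of lower score was seen at this peak and at no other in the 5 windows.

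Tal1 had 2 H3K27ac and 3 H3K4me3 peaks, and 1 position at which they met. Of consecutive 80 kb windows, 21.5% had at least 2 H3K27ac peaks, 6.49% at least 3 H3K4me3 peaks and 5.47% more H3K4me3 than H3K27ac peaks. The shared position was an H3K27ac peak of 1224 bp (114735132 to 114736355) inside an H3K4me3 peak of 1757 bp (114735059 to 114736815). The scores there were 100.12 for H3K27ac, which exceeded only 5.23% of the H3K27ac peaks that have H3K4me3, and 1389.03 for H3K4me3. The H3K4me3 score lay below the median of its list, 3100. Of that list 42.9% scored lower, and of the H3K4me3 peaks that have H3K27ac 34.4% did. The H3K27ac score lay nearer the lower end of its own list, where 17.7% scored lower. When the H3K27ac list was shortened to its 18142 highest-scoring peaks, this H3K27ac peak dropped out and no Tal1 position carried both marks.

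The other Tal1 peaks met no peak of the other mark. The gene lies between Stil and Pdzk1ip1 in the RefSeq order, and no peak was assigned to any of the 3. An H3K4me3 peak of 1391 bp (114728982 to 114730372, score 722.48) ended 4.76 kb before the nearest H3K27ac peak. It was wide and high-scoring for a peak of H3K4me3 without H3K27ac, since 90.3% of the 2525 such peaks were narrower and 88.3% scored lower. An H3K4me3 peak of 849 bp (114768335 to 114769183, score 251.2) lay 19.4 kb from H3K27ac. Both of these H3K4me3 peaks were nearer to H3K27ac than the median of 29.9 kb for H3K4me3 peaks without H3K27ac. The H3K27ac peak without H3K4me3, 1296 bp (114747677 to 114748972), had the higher H3K27ac score at Tal1, 428.19, and lay 10.9 kb from the nearest H3K4me3. Among the 14059 H3K27ac peaks without H3K4me3 the median score was 188 and the median distance 17.1 kb, so this peak scored higher than most (69.5% scored lower). After the last Tal1 H3K4me3 peak no peak of either mark was called for 640 kb (114769184 to 115409537), of which 630 kb lay beyond the right edge of the window. Stretches at least as long made up 2.61% of the 31404 gaps between peaks and, being long, 39.5% of the length of chromosomes 1 to 19 and X up to their last peak.

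Gata2 had a single peak, of H3K4me3, and it was weak. The peak measured 613 bp (88139407 to 88140019) and scored 70.82, and 6.53% of the H3K4me3 list scored lower. H3K4me3 peaks without H3K27ac had a median score of 137, and of these 20.2% scored lower than the Gata2 peak and 31.9% were narrower. The nearest H3K27ac peak was 104 kb away, farther than for 80.3% of H3K4me3 peaks without H3K27ac. Of consecutive 60 kb windows, 2.68% had H3K4me3 and no H3K27ac, as this one did, and 67.0% had no peak at all. When only peaks scoring 100 or more were kept, the Gata2 window was empty.

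Cebpa and Csf1r had no peak of either mark. Such emptiness is common among consecutive windows laid without regard to genes, of which 60.2% at 90 kb and 64.3% at 70 kb held none. No background of windows around genes was made, so how often those are empty is not known here. The Cebpa window lay in a gap of 176 kb (35842520 to 36018820), bounded 27.5 kb to its left by peaks of both marks with scores of 3100. On the right, 58.8 kb from the edge, an H3K27ac peak scored 1426.65, and an H3K4me3 peak 58.9 kb from the edge scored 3100. The Csf1r window lay in a gap of 201 kb (61134770 to 61335304). On its right, peaks of both marks with scores of 3100 began 25.3 kb (H3K4me3) and 25.4 kb (H3K27ac) from the edge. On its left the nearest H3K27ac peak, at 105.0 kb, scored 100.19, and the nearest H3K4me3 peak, at 230.0 kb, scored 3100. Gaps at least as long were 9.04 and 8.09% of all gaps, whose median was 16.6 kb. However, they held 64.2 and 62.1% of the length of these chromosomes, so most of that length lies in gaps of this size or longer. No called peak does not show that the marks are absent, since a signal under the threshold of the peak caller leaves no entry in the lists.

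**Figure D3:**
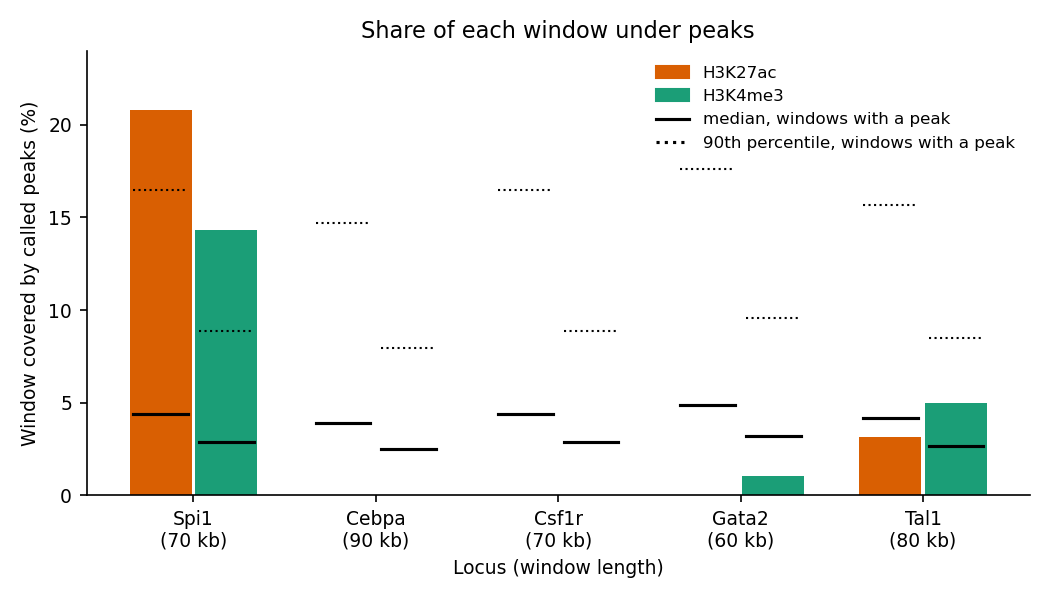
Percentage of each window (y axis) under H3K27ac (orange) and H3K4me3 (green) peaks at the 5 loci (x axis, with window length). Solid black lines give the median and dotted lines the 90th percentile of consecutive windows of the same length that hold any peak; Spi1 exceeds both for each mark, and Tal1 lies below the median for H3K27ac (3.15 against 4.16%) and above it for H3K4me3 (5.0 against 2.69%).

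Over the 5 loci together, 5 of 6 H3K27ac peaks (83.3%, exact Clopper-Pearson interval 35.9 to 99.6%) overlapped H3K4me3, against 52.3% of the whole list. For H3K4me3 it was 6 of 9 (66.7%, interval 29.9 to 92.5%), against 86.1%. Both list values lie within these intervals, which cover counting error only and treat neighbouring peaks as independent. By locus, 5 of 5 H3K4me3 peaks at Spi1 had H3K27ac, 1 of 3 at Tal1 and 0 of 1 at Gata2, numbers too small to compare the loci, and no test was made.

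Peak width and score followed the same order of loci for H3K27ac. The 4 Spi1 peaks were 2323 to 6698 bp wide and scored 1991.77 to 3100, and the 2 Tal1 peaks were 1224 and 1296 bp wide and scored 100.12 and 428.19, so the loci did not overlap in either measure. The list medians, 1782 bp and 710, lay between them. All 4 Spi1 peaks had H3K4me3, however, and H3K27ac peaks with H3K4me3 had higher medians, 2245 bp and 2410, than those without, 1252 bp and 188. Within the class with H3K4me3 the Spi1 peaks were not unusual in score, since 44.6 to 58.1% of that class scored lower, but 3 of them were tied at 3100. In width, 52.7 to 95.4% of that class were narrower, the most for the peak of 6698 bp. For the Tal1 peak with H3K4me3, 5.23% of that class scored lower and 15.9% were narrower. The Tal1 peak scoring 428.19 was in the class without H3K4me3, of which 69.5% scored lower and 51.8% were narrower. For H3K4me3 the loci overlapped: Spi1 peaks ran from 1089 to 3021 bp and from 166.66 to 3100, and Tal1 peaks from 849 to 1757 bp and from 251.2 to 1389.03. The 9 H3K4me3 members had a median width of 1391 bp, below the 1807 bp of the list, and 3 of them (33.3%) reached 3100, against 50.3% of the list at or above it.

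**Figure D4:**
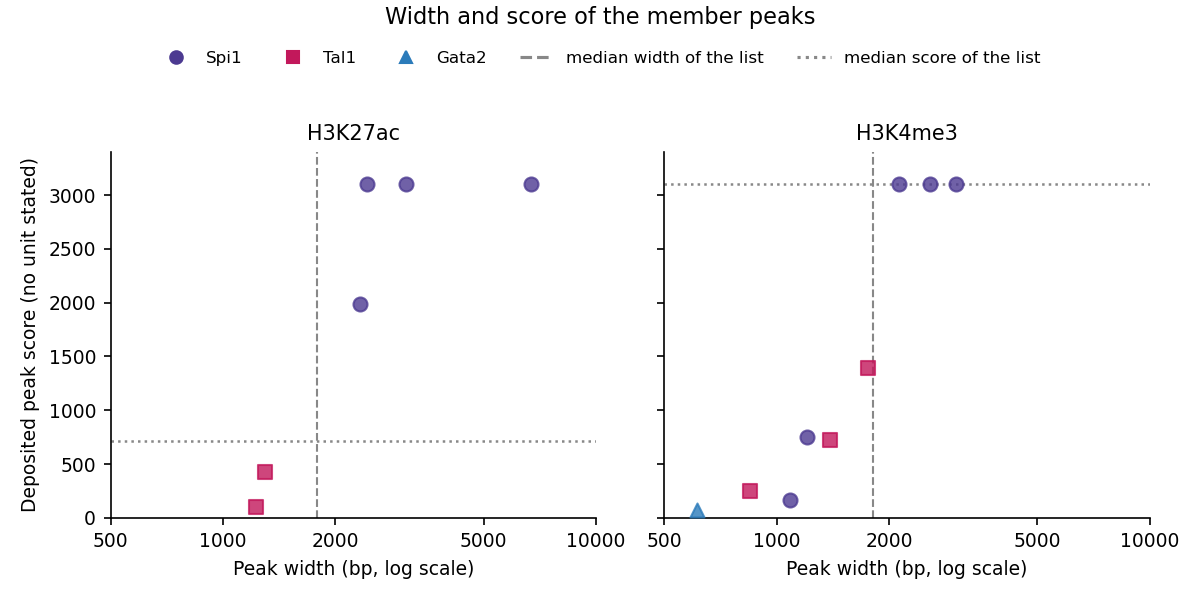
Width (x axis, bp, log scale) and deposited score (y axis, no unit stated) of the 6 H3K27ac and 9 H3K4me3 member peaks, each point 1 peak, coloured by locus. Dashed and dotted lines are the medians of the whole list; all Spi1 H3K27ac peaks lie above and to the right of them and both Tal1 H3K27ac peaks below and to the left.

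Joining H3K27ac peaks that lay within 12.5 kb placed part of the Spi1 locus among the long acetylated regions. The last 3 H3K27ac peaks of the Spi1 window formed 1 region of 29.5 kb (90909568 to 90939033) with a summed peak length of 12.1 kb, rank 914 of 16134. The limit, the point at which the curve of ranked lengths has a slope of 1, was 11.2 kb, and 6.4% of regions exceeded it. The region passed narrowly, since long regions had a median of 16.1 kb, and with joining within 5000 bp its longest piece, 6698 bp, fell short of the limit of 8952 bp. The first Spi1 peak belonged to a separate region, 13935 bp away, that reached beyond the left edge of the window. Its neighbour there, an H3K27ac peak 3.48 kb outside the window, scored 1293.97, and the first peak inside began 3.2 kb from the edge. The 2 Tal1 peaks formed a region of 2.52 kb summed length, longer than 51.4% of regions. None of the H3K4me3 peaks was broad: the widest, 3021 bp at Spi1, was below the 4435 bp that 5.01% of joined H3K4me3 domains reached.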

How the data were processed

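Per the submitters' processing notes, the authors called peaks with MACS on the mouse build mm9. The deposited lists give the position and 1 score per peak, called on 1 library per mark. No header or label defines the deposited score. The names of the deposited lists carry a calling threshold of 1e-05. The lowest score, 50.01, lies just above 50, which is the log10 of that threshold times minus 10. The scale itself is not stated, and many peaks are tied at 3100. Scores were compared only within a list. The sources used here do not give the MACS version, the aligner or the read depth.

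Window edges came from the rule for the members, and starts were converted to positions counted from 1. The members and lists were chosen with earlier results of these data known. Every member peak is described, and the planned lists of other myeloid, erythroid and marker genes could not be placed without mm9 gene positions. Overlap required 1 bp. Consecutive windows of each length, up to the last peak of a chromosome, gave the background. H3K27ac peaks within 12.5 kb were stitched, and H3K4me3 peaks within 1000 bp joined. The widest 5% of the joined domains, with ties, were called broad. Promoter letters are RefSeq's. The steps were tested on simulated data. Python 3.11.15, NumPy 2.4.6, pandas 2.3.3, SciPy 1.17.1 and matplotlib 3.10.9 were used.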

Additional observations from a re-analysis of the deposited data

How the results depend on the processing

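Of 92 alternative values for 29 results, 88 stayed on the same side of their limit, within 1.5 times (counts and covered shares) or within the 95% interval of the reported value (overlap shares and medians). Many of these are zeros at Cebpa, Csf1r and Gata2, and the intervals for 6 and 9 peaks are wide, so this says little about stability. With scores of at least 100 the Gata2 window lost its H3K4me3 peak, giving a count of 0 and a covered share of 0%. With stitching within 5000 bp the longest region at Spi1 had a summed length of 6698 bp and was no longer called long, which left 0 long regions at the 5 loci. The other alternatives were windows moved by 10 kb at each edge, joined neighbours, stricter or looser overlap and lists of the same length. No paired analysis was possible because each mark has 1 library. The Spi1 window held 3 to 6 H3K27ac and 4 to 6 H3K4me3 peaks as its edges moved. With lists of the same length, 4 of 5 H3K27ac members (80.0%) and 5 of 9 H3K4me3 members (55.6%) overlapped the other mark. Unknown depth limits every statement about a missing peak.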
